A study of Mus musculus with 18 samples.

Results

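The heat shock chaperones described here are 10 genes of mouse skin: Hspa1a, Hspa1b, Dnajb1, Hsph1, Hspb1, Hsp90aa1, Hspa8, Dnaja1, Hspe1 and Hspd1. They were taken by symbol from the expression matrices of all 10 mRNA libraries of a single-cell study of stretched skin, out of 32285 genes listed there. The genes were selected on measured UMI levels of these libraries, with earlier results by class, arm and day in view; no cut-off enters the rule, and which values weighed is not recorded. What the members do between the arms is therefore given as a description, beside the share of all genes that passed the same test. Every mouse was operated on. The back was opened near the tail and a channel was made beneath the skin up to the neck; in the expanded arm (EXP) an expander hydrogel was left there under the skin, and in the control arm (CTRL) nothing was left, so both arms carry the wound. Each arm has 5 libraries, 2 from day 1, 2 from day 2 and 1 from day 4, and each library pools the mice of 1 arm and 1 sequencing round. Strain, sex and age are not given in the sources used here. The skin was digested to single cells, DAPI-negative (live) cells were sorted, and transcripts were counted as unique molecular identifiers (UMIs) with a 10x kit that reads the 3′ end.

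Heat shock chaperones keep other proteins folded. In an unstressed cell the transcription factor HSF1 is held inactive by chaperones. Unfolded protein draws those chaperones away, and HSF1 then binds repeated GAA elements before genes such as Hspa1a, Hspb1 and Dnajb1. Hspa1a and Hspa1b encode the inducible HSP70 proteins and Hspa8 the constitutive one. Dnajb1 and Dnaja1 are J-domain co-chaperones that hand clients to HSP70, and Hsph1 is the nucleotide exchange factor that lets HSP70 release them. Hspb1 is a small heat shock protein that holds unfolded clients and binds actin and keratin networks in epidermis. Hsp90aa1 is the inducible cytosolic HSP90, and Hspd1 and Hspe1 form the folding chamber of mitochondria. Warm enzymatic digestion of skin is known to induce heat shock genes together with immediate early genes such as Fos, Jun and Atf3.

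The members sit at 8 places in the mouse genome (GRCm38), and 2 pairs are neighbours. Hspa1a (chr17:34969190-34972156, minus strand) and Hspa1b (chr17:34956436-34959238, minus strand) are copies 9951 bases apart. Hspe1 (chr1:55088132-55091307, plus strand) and Hspd1 (chr1:55077835-55088243, minus strand) are read away from each other and overlap by 112 bases. The stretches before the starts of 4 members are shown because they carry the GAA repeats through which HSF1 is known to act, in capitals, as read by RefSeq on GRCm38.p6. Each runs from 150 to 51 bases before the annotated start (chr17:34972207-34972306, chr17:34959289-34959388 and chr5:135887769-135887868), except for Hspe1, where 30 bases before the start are given (chr1:55088053-55088082). Hspa1a and Hspa1b are on the minus strand, Hspb1 and Hspe1 on the plus strand.
Hspa1a: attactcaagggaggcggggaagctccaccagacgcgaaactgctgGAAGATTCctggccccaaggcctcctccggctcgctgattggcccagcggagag
Hspa1b: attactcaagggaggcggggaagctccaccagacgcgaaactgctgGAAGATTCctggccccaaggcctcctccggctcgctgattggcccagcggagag
Hspb1: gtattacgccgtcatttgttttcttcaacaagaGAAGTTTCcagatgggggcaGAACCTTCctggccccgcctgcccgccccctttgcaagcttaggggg
Hspe1: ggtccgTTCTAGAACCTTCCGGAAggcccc
The capitals mark GAANNTTC or TTCNNGAA, each of which reads the same on both strands. Hspa1a and Hspa1b did not differ at any of these 100 bases, and over the whole window of 250 bases before to 50 after the start they were the same at 296 of 300 positions. Both carry 1 repeat, Hspb1 carries 2, and the Hspe1 stretch carries 3 that overlap each other and lie inside Hspd1 on the other strand. Windows of that size were listed for 8 of the 10 members, not for Hsp90aa1 and Hspa8. Of these, 7 had a repeat in at least 1 window and Dnajb1 had none. Counted by window, 8 of the 13 windows of members held a repeat, against 15.1% of 32851 listed mouse promoters. The windows are not all separate. The 2 windows of Hsph1 overlap and hold the same repeats. The Hspe1 window and a window of Hspd1 hold the same repeats on opposite strands, so these sites are counted more than once. The repeats are matches of letters, not measured binding sites.

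The 10 libraries held 17726739 to 75470722 gene UMIs, and 44811 of 55174 barcodes were kept as cells, 27929 control and 16882 expanded. Median depth per cell was 6303 to 11352.5 UMIs in control and 7382 to 12687.5 in expanded libraries, and the median mitochondrial share was 2.07% to 3.10% and 1.92% to 3.22%. Cells were grouped without the members, the other chaperones or the dissociation genes into 30 clusters, of which 25 were named from markers as 15 classes. The 5 unnamed clusters hold 2782 cells. In 11 classes at least 4 libraries per arm held 20 cells or more and the arms were compared; the other 4 are described at the end. Levels are CPM, UMI counts scaled to a common total, of the summed cells of a class in a library, given as mean ± SD over libraries. Counts of 1 gene are not set against those of another, because only transcript ends are read.

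In control skin the means of the inducible HSP70 genes were highest in lymphatic endothelial-like and basal keratinocyte-like cells and lowest in lymphocytes. Hspa1a stood at 694 ± 372 CPM in lymphatic endothelial-like cells, 530.2 ± 400.3 in basal keratinocyte-like, 449.9 ± 118 in pericyte or smooth muscle-like, 388 ± 164 in macrophage or monocyte-like and 362 ± 104 in fibroblast-like cells. It was 49.7 ± 57.5 CPM in NK or innate lymphoid-like and 39.8 ± 27.1 in T cell-like cells (n = 5 libraries each). The means of 15 classes spanned 17.5-fold, but every neighbouring pair in that order overlapped between libraries. Hspa1b was highest in basal keratinocyte-like cells (582 ± 509), lowest in T cell-like cells (26.0 ± 14.8), and spanned 22.4-fold. The basal keratinocyte-like means of both genes lean on control day 2 round 1, which held only 20 such cells. That library had the top Hspa1a value of the class. Its Hspa1b value, 1467 CPM, stood apart from those of the other control libraries. Over cells thinned to 2000 UMIs, Hspa1a was detected in a median of 39.0% (range 29.5% to 46.5%) of fibroblast-like cells per control library and in 4.19% (range 2.31% to 4.52%) of T cell-like cells. Free RNA can give UMIs in cells that do not express a gene, and its part in these shares was not tested.

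Hspb1 divided the classes most sharply. Basal keratinocyte-like cells held 3754 ± 867 CPM, above every library of the next class, endothelial-like cells with 1087 ± 157. Pericyte or smooth muscle-like, suprabasal or upper follicle keratinocyte-like and lymphatic endothelial-like cells followed with 846 ± 233, 740.5 ± 142 and 629 ± 106 CPM and overlapped each other. Below a gap came dermal papilla-like cells (325 ± 81.6, n = 3), then Schwann-like cells (128 ± 32.6, n = 4) and fibroblast-like cells (41.8 ± 14.9), while macrophage, dendritic and NK classes held means of 13.2, 7.01 and 2.92. The 2 J-domain genes were ordered differently from each other: Dnajb1 peaked in mast cell-like (838 ± 484) and basal keratinocyte-like cells (653 ± 117), Dnaja1 in T cell-like cells (1304 ± 169), where Hspa1a was lowest. Hspa8 and Hsp90aa1 were highest in lymphatic endothelial-like cells (3503 ± 287 and 1493 ± 351), as was Hsph1 (126 ± 32.8), which lay above every library of the next class. The mitochondrial pair peaked in suprabasal or upper follicle keratinocyte-like cells, with 449 ± 77.2 CPM for Hspe1 and 397 ± 106 for Hspd1.

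**Figure D1:**
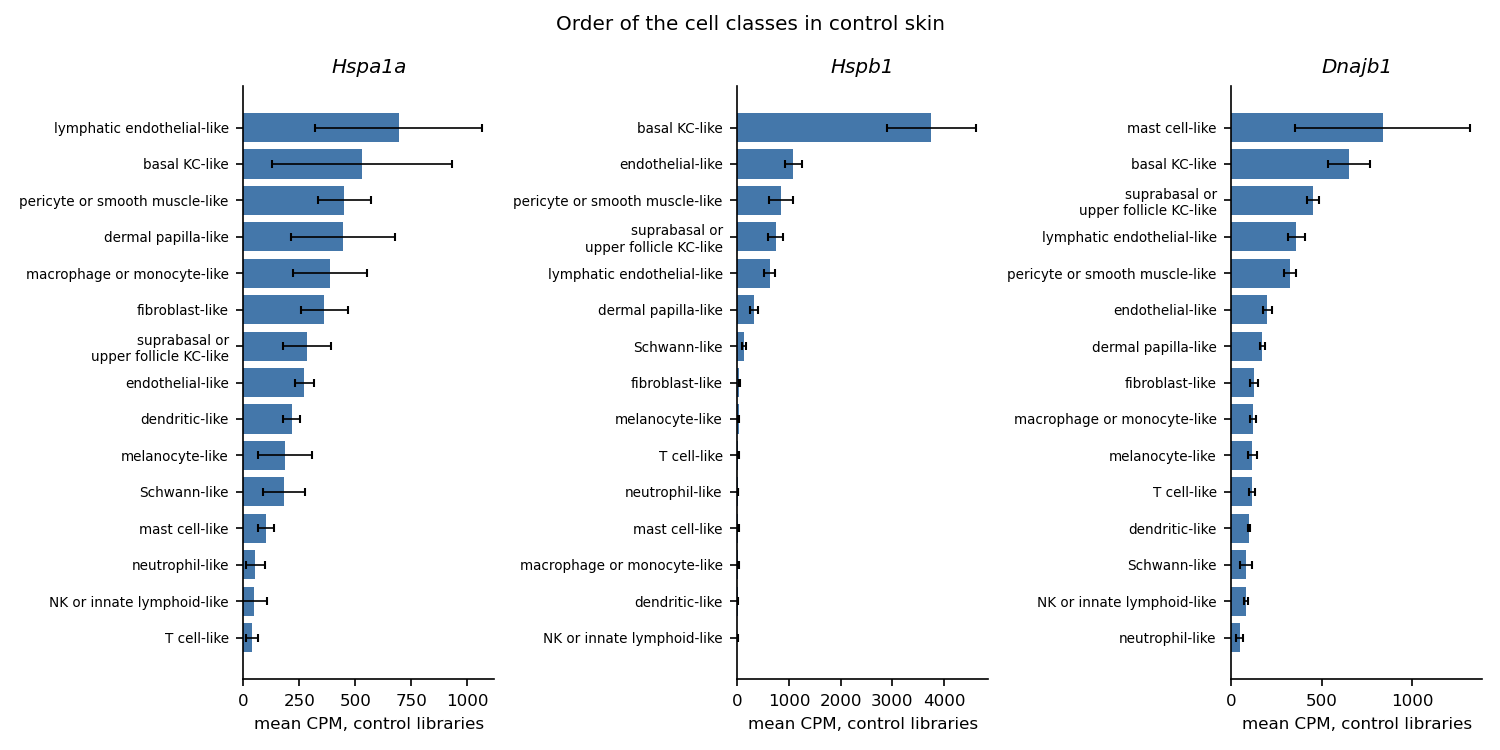
Bars give the mean CPM of Hspa1a, Hspb1 and Dnajb1 over the control libraries in each of 15 cell classes, ordered by that mean, and error bars are the SD over libraries; KC stands for keratinocyte. Hspb1 is at 3754 CPM in basal keratinocyte-like cells and at 2.92 in NK or innate lymphoid-like cells, a wider span than Hspa1a shows.

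With expansion each of the 8 cytosolic members was called lower in 3 to 6 of the 9 to 11 classes where it could be tested, and neither gene of the mitochondrial pair was called lower in any class. Of 106 combinations of class and member that could be tested, 40 were lower and 1 was higher in expanded skin at an adjusted p under 0.05 (edgeR's quasi-likelihood test on class sums with day in the model, Benjamini-Hochberg over all genes), and 65 were not called. Both endothelial classes had 8 of 10 members called, all lower: 12.4% of all genes were called in lymphatic endothelial-like cells, 6.1% lower, and 13.4% in endothelial-like cells, 7.24% lower. In each of 3 further classes 6 members fell. All genes were called at 21.1% (11.8% lower) in macrophage or monocyte-like cells, at 17.9% (9.84% lower) in dendritic-like cells, where 9 members could be tested, and at 17.5% (9.19% lower) in suprabasal or upper follicle keratinocyte-like cells. Basal keratinocyte-like cells had 2 members lower, where 1.12% of all genes were called and 0.453% were lower. Pericyte or smooth muscle-like cells also had 2 lower, beside 19% of all genes called and 10.5% lower. Fibroblast-like cells had 2 lower and 1 higher, where 35.1% of all genes were called and 17.8% were lower, so that 3 of 10 members is near the share of all genes. No member was called in Schwann-like cells (0.121% of all genes called, 0.0755% lower), T cell-like cells (0.348%, 0.258% lower) or NK or innate lymphoid-like cells (0.224%, 0.179% lower, 7 members tested). In the sum of all cells, which also moves with the mix of classes, 4 members fell, beside 26.6% of all genes called and 14% lower.

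**Figure D2:**
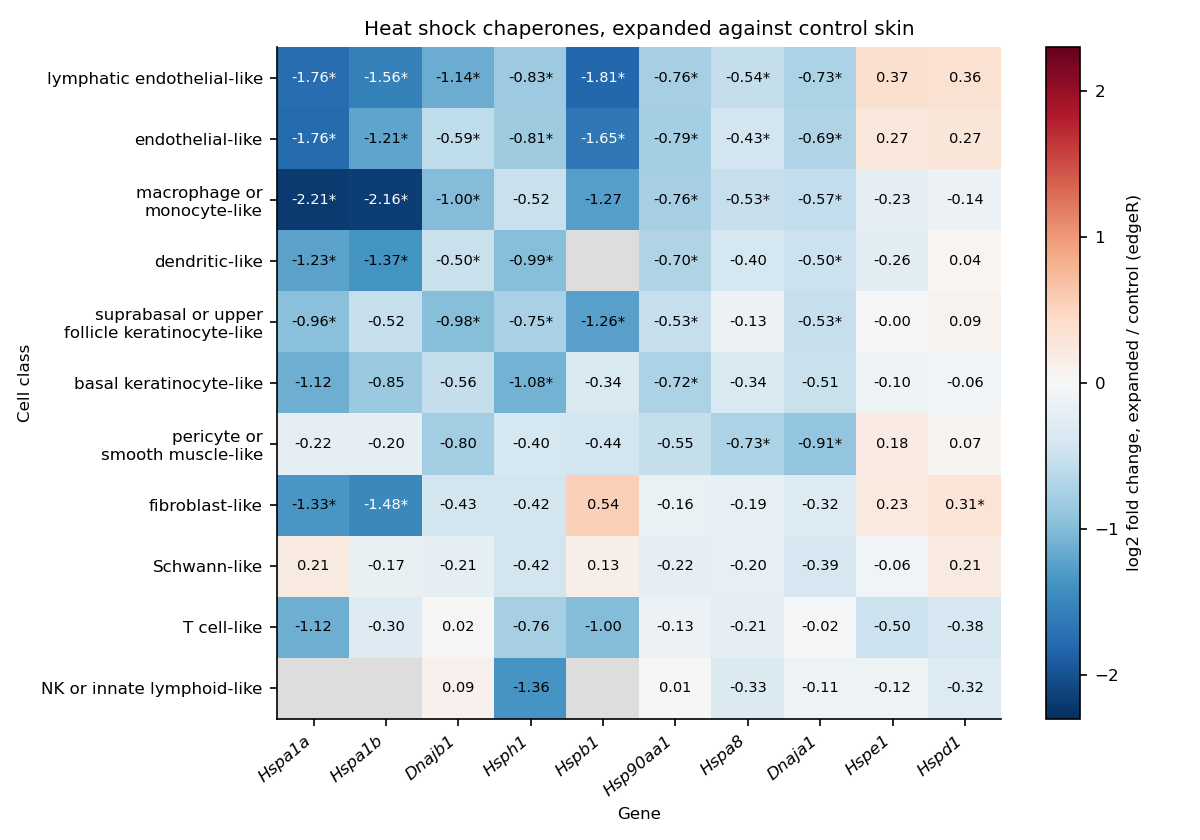
Each cell gives the log2 fold change of a member (columns) in a cell class (rows), expanded over control, fitted with edgeR on sums per library; asterisks mark an adjusted p under 0.05 over all genes and grey cells were not tested. The 2 right-hand columns, Hspe1 and Hspd1, hold values from -0.50 to 0.37, and the strongest reductions are Hspa1a and Hspa1b in macrophage or monocyte-like cells.

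Several of these counts changed when 1 library was left out. Without the day 4 control or the day 4 expanded library, members called dropped to 4 in both endothelial classes, to 3 in macrophage or monocyte-like and to 2 in dendritic-like cells, and to 1 in basal keratinocyte-like cells. Day 4 has 1 library per arm, so with day in the model either loss removes the whole day 4 comparison. Calls over all genes dropped too in fits without 1 library. The lowest counts were 208 from 777 in lymphatic endothelial-like, 676 from 1244 in endothelial-like and 1175 from 2182 in macrophage or monocyte-like cells. They were 707 from 1602 in dendritic-like and 28 from 106 in basal keratinocyte-like cells. The count was also 5 in lymphatic endothelial-like cells without expanded day 2 round 2, 3 in macrophage or monocyte-like cells without control day 1 round 2, 3 in dendritic-like cells without expanded day 2 round 1, and 1 in basal keratinocyte-like cells without control day 1 round 1 or expanded day 2 round 2. Leaving out expanded day 1 round 2 raised the count to 5 in fibroblast-like, 4 in pericyte or smooth muscle-like and 1 in T cell-like cells. With the day and sequencing round as a block, which pairs a control with an expanded library, fibroblast-like cells had 5 members called and pericyte or smooth muscle-like cells 4. Fold changes are relative to trimmed-mean (TMM) scaling, under which the median of all genes lay between -0.01 and 0.02 in the 11 classes. Scaling by total counts moved that median to 0.27 in fibroblast-like, 0.26 in dendritic-like, 0.12 in endothelial-like, 0.11 in macrophage or monocyte-like, 0.10 in pericyte or smooth muscle-like, 0.11 in T cell-like and 0.11 in NK or innate lymphoid-like cells. It turned 2227 higher and 2305 lower calls into 4262 higher and 1233 lower in fibroblast-like cells, 722 higher and 880 lower into 1775 higher and 428 lower in dendritic-like, 573 higher and 671 lower into 912 higher and 499 lower in endothelial-like and 956 higher and 1226 lower into 1316 higher and 927 lower in macrophage or monocyte-like cells. The same change was 578 higher and 721 lower to 847 higher and 566 lower in pericyte or smooth muscle-like, 825 higher and 918 lower to 1228 higher and 641 lower in suprabasal, 396 higher and 381 lower to 510 higher and 313 lower in lymphatic endothelial-like, 7 higher and 20 lower to 13 higher and 14 lower in T cell-like, 2 higher and 8 lower to 5 higher and 5 lower in NK or innate lymphoid-like, 3 higher and 5 lower to 3 higher and 2 lower in Schwann-like cells and 2075 higher and 2304 lower to 3384 higher and 1527 lower in all cells. A ratio of CPM levels therefore differs from the fitted change of the same gene.

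Hspa1a and Hspa1b, the inducible HSP70 pair, were the members with the largest reductions in macrophage or monocyte-like cells, and both kept every call they had in any class in all fits that left out 1 library. In macrophage or monocyte-like cells Hspa1a was at 673, 385, 310.2, 284 and 288 CPM in the control libraries of day 1 rounds 1 and 2, day 2 rounds 1 and 2, and day 4. In expanded libraries, in the same order, it was at 129, 174, 81.6, 48.3 and 51.5 CPM. The lowest control library lay above the highest expanded one, and the log2 fold change was -2.21 (SE 0.23, adjusted p = 0.000927). Hspa1b in these cells went from 237 ± 85.6 to 61.5 ± 37.1 CPM, also without overlap, and its log2 fold change was -2.16 (SE 0.31, adjusted p = 0.00241).

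Endothelium showed the same direction. Lymphatic endothelial-like cells had Hspa1a at 445, 415, 1241, 922 and 446 CPM in control and 109, 216, 315, 308 and 109 in expanded libraries, and the arms did not overlap although both day 2 controls stood far above the others. The log2 fold change was -1.76 (SE 0.20, adjusted p = 0.000113) for Hspa1a and -1.56 (SE 0.15, adjusted p = 1.75e-05) for Hspa1b. In endothelial-like cells Hspa1a was 266, 240.0, 307, 322 and 223 CPM in control and 107, 138, 83.9, 35.3 and 67.3 in expanded libraries, a log2 fold change of -1.76 (SE 0.23, adjusted p = 0.000785). Hspa1b fell there from 124 ± 59.6 to 51.1 ± 15.2 CPM, -1.21 (adjusted p = 0.00541) on the log2 scale.

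Fibroblast-like cells, the largest class, had Hspa1a at 317, 314, 242, 499.8 and 436 CPM in control and 162, 260.3, 117, 149.5 and 170.2 in expanded libraries. Only expanded day 1 round 2 reached into the control range, and the log2 fold change was -1.33 (SE 0.22, adjusted p = 0.00111). Hspa1b went from 198, 164, 135, 260.2 and 191 to 90.6, 104, 59.5, 74.9 and 77.3 CPM with no overlap, -1.48 (SE 0.17, adjusted p = 0.000258). Dendritic-like cells had 217 ± 38.5 CPM of Hspa1a in control and 110.0 ± 45.5 in expanded skin, -1.23 (adjusted p = 0.00938). Suprabasal or upper follicle keratinocyte-like cells fell from 284 ± 108 to 148 ± 27.2, -0.96 (adjusted p = 0.00533), while their Hspa1b was -0.52 (adjusted p = 0.0824). In basal keratinocyte-like cells the control libraries ranged from 235 to 1199 CPM, the top value coming from a library with 20 such cells, and the difference of -1.12 (SE 0.33, adjusted p = 0.106) was not called. Pericyte or smooth muscle-like cells held 388, 385, 659.7, 424 and 393 CPM in control and 368, 637, 451, 213 and 402 in expanded libraries, a log2 difference of -0.22 (SE 0.25, adjusted p = 0.579) that was not called, and Schwann-like cells had 0.21 (SE 0.26, adjusted p = 0.844).

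**Figure D3:**
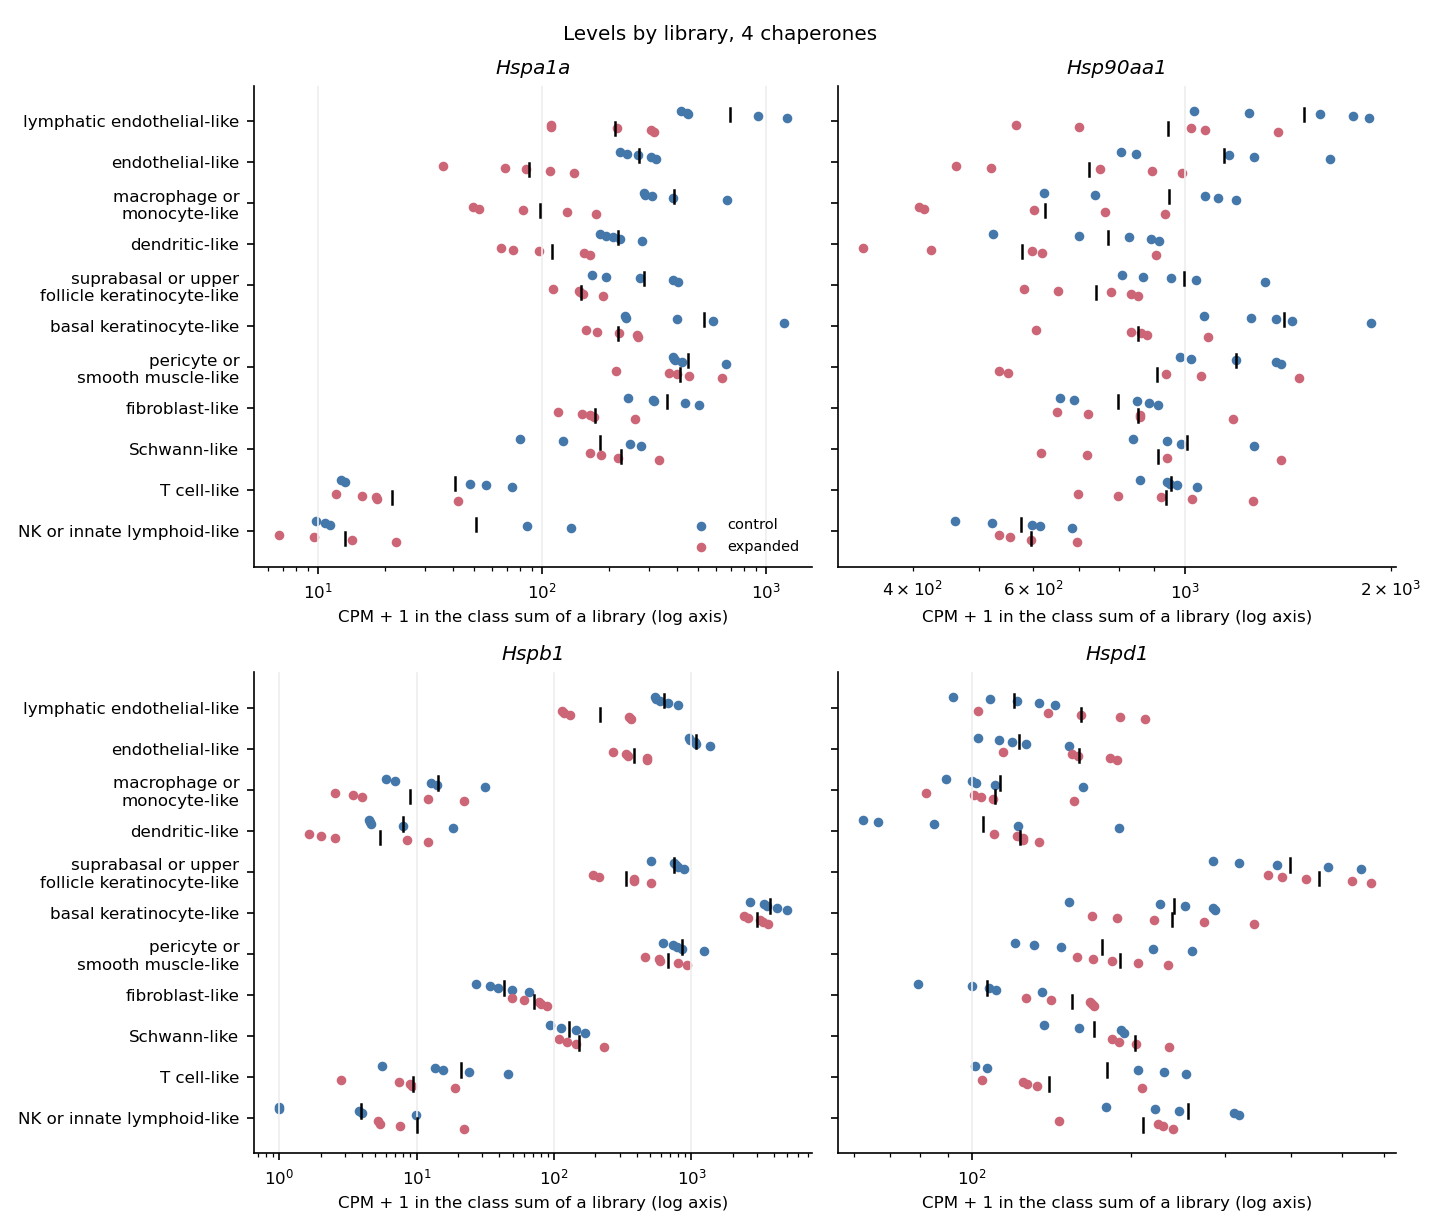
Each point is the CPM (plus 1, log axis) of a gene in the summed cells of a class in 1 library, blue for control and red for expanded, and black bars are arm means, for Hspa1a, Hsp90aa1, Hspb1 and Hspd1. The Hspa1a points of the arms do not overlap in both endothelial classes, macrophages and dendritic cells, the Hspb1 points do not in both endothelial and suprabasal cells, and the Hspd1 points overlap in all 11 classes.

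Hspa1a and Hspa1b are close copies, so their counts may share reads. Over the last 500 transcript bases, where this kit reads, they shared 0% of 91-base words, against 49.1% of those of the whole Hspa1a transcript and 52.0% of those of Hspa1b. Across 107 sums of class and library, centred within class, their log2 levels had a Pearson r of 0.92, a description with no test. Within single classes of single libraries the median Spearman correlation over cells was 0.21 in cells thinned to 2000 UMIs.

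Dnajb1, the J-domain partner of inducible HSP70, fell in 5 classes. Suprabasal or upper follicle keratinocyte-like cells had 485, 420.2, 476, 461 and 411 CPM in control libraries and 256, 232, 241, 240.0 and 250.4 in expanded ones. Every expanded library lay below every control library, with a log2 fold change of -0.98 (SE 0.10, adjusted p = 0.000713). In lymphatic endothelial-like cells Dnajb1 went from 377, 326, 436, 341 and 317 to 187, 290.2, 157, 105 and 134 CPM, without overlap, -1.14 (SE 0.22, adjusted p = 0.00317). Macrophage or monocyte-like cells went from 122 ± 16.5 to 66.4 ± 12.9 without overlap (adjusted p = 0.00424), and endothelial-like cells from 199 ± 23.7 to 144 ± 39.8, -0.59 (adjusted p = 0.0191). The call in dendritic-like cells, -0.50 (adjusted p = 0.0395), was kept in 2 of 10 fits without 1 library. In fibroblast-like cells Dnajb1 was 126 ± 21.9 in control and 110.3 ± 28.2 in expanded skin, -0.43 (SE 0.17, adjusted p = 0.0717); it was called without expanded day 1 round 2. In pericyte or smooth muscle-like cells, where that library held 500.5 CPM and the other expanded libraries 127 to 188, the difference was -0.80 (SE 0.30, adjusted p = 0.0771), and it was called too without that library.

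Dnaja1, the other J-domain gene, fell in 6 classes. Pericyte or smooth muscle-like cells showed the largest change, from 968, 1277, 1117, 968 and 1350.1 CPM in control to 662, 882, 635, 509 and 568 in expanded libraries, with no overlap and a log2 fold change of -0.91 (SE 0.17, adjusted p = 0.00362). Endothelial-like cells went from 1209.7 ± 209 to 812 ± 176, -0.69 (adjusted p = 0.0161), and suprabasal or upper follicle keratinocyte-like cells from 769.9 ± 162 to 571 ± 102, -0.53 (adjusted p = 0.00656). These 3 calls were kept in all fits without 1 library. Those in lymphatic endothelial-like (-0.73), dendritic-like (-0.50) and macrophage or monocyte-like cells (-0.57) were kept in 5, 5 and 3 of 10, and each was lost without the control or the expanded day 4 library, among others.

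Hsph1, the HSP110 exchange factor, fell in 5 classes. In basal keratinocyte-like cells it was 52.0, 43.8, 57.4, 57.9 and 48.2 CPM in control and 26.1, 27.6, 23.2, 23.5 and 20.6 in expanded libraries. Every expanded library was below every control library, with a log2 fold change of -1.08 (SE 0.14, adjusted p = 0.00424) that was kept in all fits without 1 library. Lymphatic endothelial-like cells went from 126 ± 32.8 to 71.5 ± 22.2, -0.83 (adjusted p = 0.0228), and dendritic-like cells from 32.9 ± 15.6 to 19.3 ± 4.53, -0.99 (adjusted p = 0.0215). Endothelial-like (-0.81) and suprabasal or upper follicle keratinocyte-like cells (-0.75) were the other 2 classes called. Outside basal keratinocyte-like cells the 4 calls were each lost without the control or the expanded day 4 library, and the log2 difference of Hsph1 was below 0 in all 11 classes. When cells were thinned to 2000 UMIs all 5 calls of Hsph1 were lost. The log2 fold change was then -1.20 (adjusted p = 0.0597) in basal keratinocyte-like, -0.67 (adjusted p = 0.123) in dendritic-like, -0.59 (adjusted p = 0.229) in lymphatic endothelial-like, -0.48 (adjusted p = 0.403) in suprabasal or upper follicle keratinocyte-like and -0.44 (adjusted p = 0.345) in endothelial-like cells.

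Hspb1, the small heat shock protein, fell in 3 of the classes where it is abundant and not in fibroblasts. Endothelial-like cells held 1071, 980.5, 1353, 1067 and 963 CPM in control libraries and 473, 476, 335, 268 and 344 in expanded ones. The lowest control library, at 963, lay above the highest expanded one, at 476, and the log2 fold change was -1.65 (SE 0.17, adjusted p = 0.000172). In lymphatic endothelial-like cells Hspb1 went from 797, 552, 588, 668 and 541 to 360.3, 351, 130.3, 118 and 113 CPM, again without overlap, -1.81 (SE 0.24, adjusted p = 0.000288). Suprabasal or upper follicle keratinocyte-like cells went from 887, 791, 744, 774 and 505 to 383, 383, 191, 503 and 210.2, -1.26 (SE 0.20, adjusted p = 0.00321), where control day 4 and expanded day 2 round 2 nearly touched at 505 and 503. All 3 calls were kept in every fit without 1 library. Basal keratinocyte-like cells, with the highest level, were at 3754 ± 867 in control and 3013 ± 511 in expanded skin, -0.34 (SE 0.16, adjusted p = 0.295). Fibroblast-like cells were at 25.9, 33.0, 38.0, 64.4 and 48.0 in control and 76.3, 79.4, 59.2, 48.3 and 87.6 in expanded libraries, 0.54 (SE 0.21, adjusted p = 0.0622); total-count scaling called it at 0.78 (adjusted p = 0.0172). In macrophage or monocyte-like cells the means were 13.2 and 7.86 CPM, beside 3754 and 3013 in basal keratinocyte-like cells, and whether free RNA of other cells makes up these counts was not tested.

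Hsp90aa1, the stress-responsive cytosolic HSP90, fell in 6 classes with log2 fold changes from -0.79 to -0.53. Lymphatic endothelial-like cells had 1575, 1859.7, 1763, 1241 and 1029 CPM in control and 1022, 1368, 1069, 699.9 and 566 in expanded libraries, lower in 5 of 5 pairs of libraries from the same day and round, with overlap between the arms and a log2 fold change of -0.76 (SE 0.19, adjusted p = 0.0134). Basal keratinocyte-like cells went from 1395 ± 298 to 853 ± 169.7, -0.72 (adjusted p = 0.0177), and macrophage or monocyte-like cells from 620.4 to 1188 in control to 408 to 934 in expanded libraries, -0.76 (adjusted p = 0.0227). Each of the 6 calls was lost without the control or the expanded day 4 library. Fibroblast-like cells were at 798 ± 118 in control and 852 ± 201 in expanded skin, -0.16 (SE 0.14, adjusted p = 0.402), higher in 2 of 5 pairs. T cell-like and NK or innate lymphoid-like cells had -0.13 and 0.01.

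Hspa8, the constitutive HSP70, fell in 4 classes. In pericyte or smooth muscle-like cells it was 2369, 2865, 2553, 2891 and 2848 CPM in control and 1434, 1932, 1762, 1708 and 1886 in expanded libraries, without overlap, and the log2 fold change of -0.73 (SE 0.14, adjusted p = 0.0041) was kept in every fit without 1 library. The log2 fold change was -0.53 (adjusted p = 0.0246) in macrophage or monocyte-like, -0.43 (adjusted p = 0.0265) in endothelial-like and -0.54 (adjusted p = 0.048) in lymphatic endothelial-like cells. These calls were kept in 4, 4 and 2 of 10 such fits, and each was lost without the control or the expanded day 4 library. The log2 difference of Hspa8 was below 0 in all 11 classes.

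The mitochondrial pair held the only call towards higher levels. Hspd1, the HSP60 subunit, was at 78.3, 98.9, 110.0, 134 and 107 CPM in fibroblast-like cells of control libraries and 139.9, 166, 169, 168 and 126 in expanded ones. It was higher in 5 of 5 pairs, with a log2 fold change of 0.31 (SE 0.11, adjusted p = 0.0493). That call was kept in 3 of 10 fits without 1 library, being lost without either library of day 1 rounds 1 and 2 or of day 2 round 1, or without expanded day 2 round 2. Hspe1, its HSP10 lid, was at 115, 129.6, 132, 190.2 and 159 in control and 184, 186, 227, 224 and 180.3 in expanded libraries, 0.23 (SE 0.11, adjusted p = 0.125), and total-count scaling called it at 0.47 (adjusted p = 0.0100). Lymphatic endothelial-like cells had Hspe1 at 135, 139, 94.8, 168 and 167 in control and 177, 182, 289, 184 and 174 in expanded libraries, with every expanded library above every control one but a log2 fold change of 0.37 (SE 0.19, adjusted p = 0.206). Endothelial-like cells had 0.27 (adjusted p = 0.18) for Hspe1 and 0.27 (adjusted p = 0.149) for Hspd1, T cell-like cells -0.50 (adjusted p = 0.196) and -0.38 (adjusted p = 0.403). Whether the counting used the strand, which matters where Hspe1 and Hspd1 overlap, is not given in the sources used here.

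The arms differ in which clusters make up the macrophage or monocyte-like, fibroblast-like and dendritic-like classes, and single clusters were therefore fitted as well, a choice made after seeing the data. In the macrophage or monocyte-like class cluster 9, led by Chil3 and Ly6c2, held 74.7% of expanded and 5.91% of control cells, and cluster 5, led by Cd209f and C1qc, held 4.60% and 47.5%. Control Hspa1a was 657 ± 301 CPM in cluster 5, 182 ± 58.1 in cluster 6 and 186 ± 56.6 in cluster 9 (n = 5, 5 and 3 libraries), so the cluster frequent in control skin was also the one with the most Hspa1a. Within cluster 6 the Hspa1a difference was -0.82 (adjusted p = 0.112) and 1 member, Dnajb1, was called at -0.76 (adjusted p = 0.0299). Within cluster 9 no member was called and Hspa1a was -1.54 (adjusted p = 0.167). Over all genes 8.26% were called in cluster 6, and 5 of 8258 genes in cluster 9. Cluster 5 had enough cells in only 2 expanded libraries and was not fitted. Its Hspa1a ranged from 398 to 1127 CPM in 5 control libraries and from 234 to 445 in those 2 expanded libraries. The part of the cluster mix in the macrophage values above was not tested.

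In the fibroblast-like class cluster 3 held 33.9% of control and 5.47% of expanded cells, and cluster 0 held 13.9% and 41.7%. Cluster 3 had 20 cells or more in only 2 expanded libraries and was not fitted. Over all genes 8.69% were called in cluster 0, 29.9% in cluster 2, 19.6% in cluster 4 and 17.8% in cluster 13. The log2 fold change of Hspa1a was -1.35 (adjusted p = 0.00336) in cluster 0, -1.65 (adjusted p = 0.000345) in cluster 2 and -1.19 (adjusted p = 0.00117) in cluster 4, and Hspa1b was called in these 3 and in cluster 13 at -1.28 (adjusted p = 0.000835), where Hspa1a was not called at -0.60 (adjusted p = 0.184). Hspd1 was -0.06 (adjusted p = 0.806) in cluster 0, led by Coch and Fmod, 0.60 (adjusted p = 0.00329) in cluster 2, led by Igfbp2 and Mme, and 0.65 (adjusted p = 0.0426) in cluster 13. Hspb1 was called higher in cluster 2 at 1.23 (adjusted p = 0.000689) and cluster 4 at 1.09 (adjusted p = 0.0378), and was -0.33 (adjusted p = 0.396) in cluster 0. The dendritic-like class was made up of cluster 7, with 81.4% of control and 57.7% of expanded cells, and cluster 8, with 18.6% and 42.3%. Hspa1a was -0.85 (adjusted p = 0.0402) in cluster 7 and -2.06 (adjusted p = 0.00959) in cluster 8, beside 15.1% and 7.48% of all genes called. Hspe1 of the mitochondrial pair was called lower in cluster 8 at -0.95 (adjusted p = 0.0166), and was -0.04 (adjusted p = 0.904) in cluster 7. Hspa1b, Dnajb1, Hsph1 and Hspa8 were called lower in cluster 8 as well. Differences between clusters, and the part of the mix in the values of these classes, were not tested.

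Cells of 8 libraries carried hashtag antibodies that mark the mouse of origin, and 98.6% to 99.8% of macrophage, dendritic, T, NK, neutrophil and mast cells could be assigned. Among macrophage or monocyte-like cells, Hspa1a ranged from 112 to 829 with a median of 295 CPM over 14 control mice and from 12.4 to 168 with a median of 54.5 over 12 expanded mice. Mice of 1 library differed by up to 6.79-fold. Control day 1 round 2 had mice from 342 to 829 CPM and control day 4 from 148 to 504. In dendritic-like cells Hspa1a ranged from 96.1 to 475 with a median of 234 in 14 control and from 26.2 to 262 with a median of 115 in 10 expanded mice, with more overlap. Mice of 1 arm and round shared a tube and were not tested as replicates.

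**Figure D4:**
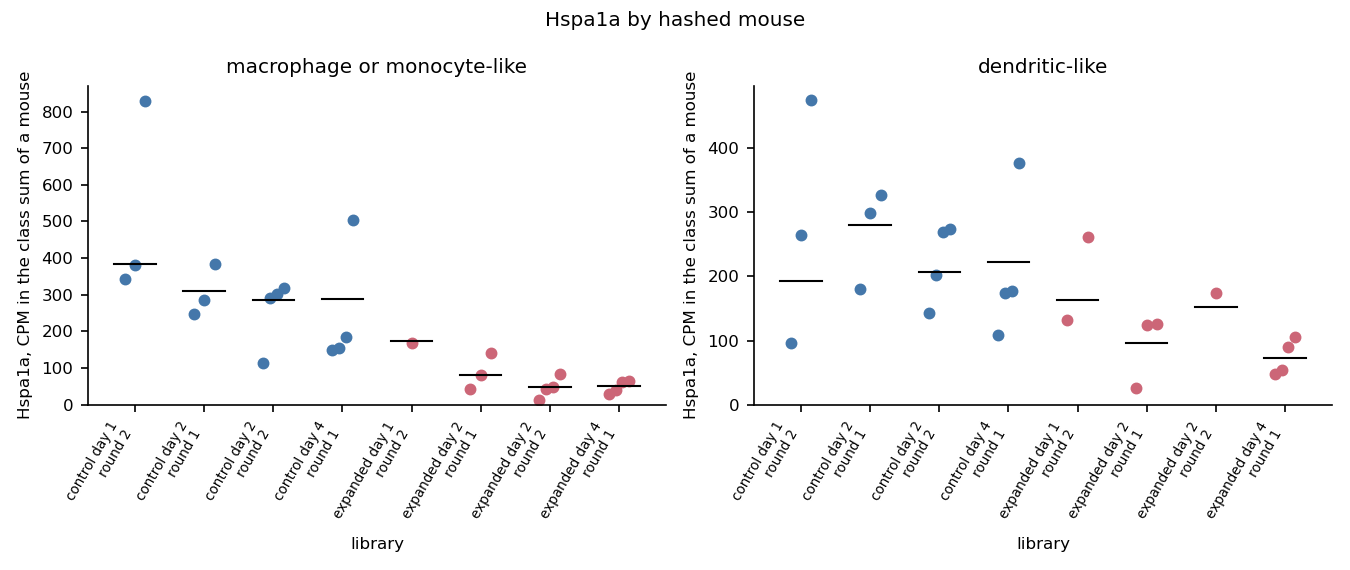
Each point is the Hspa1a CPM of 1 mouse with at least 20 assigned cells of the class, by library, and black lines give the library's sum over all its cells of that class. Most expanded mice lie below the control mice in macrophages, where control mice reach 829 CPM and expanded mice 168, and the spread inside a library is wide.

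Whether the arm difference depended on the day was tested as an interaction in edgeR. In all 12 fits 0 members were called, where 0% of all genes were called in 10 of them, 0.0108% in endothelial-like and 0.0146% in pericyte or smooth muscle-like cells, and 8 of the member tests had an unadjusted p under 0.05. Hspa1a in macrophage or monocyte-like cells differed by -1.91 on day 1, -2.29 on day 2 and -2.65 on day 4, and in fibroblast-like cells by -0.89 on day 1, -1.63 on day 2 and -1.62 on day 4 (log2 fold changes). Endothelial-like cells had -1.20 on day 1, -2.41 on day 2 and -1.80 on day 4 for Hspa1a and -1.27 on day 1, -2.08 on day 2 and -1.56 on day 4 for Hspb1, and lymphatic endothelial-like cells -0.97 on day 1, -2.45 on day 2 and -2.35 on day 4 for Hspb1 (unadjusted p = 0.00419). Hspb1 in fibroblast-like cells differed by 1.10 on day 1, -0.08 on day 2 and 0.60 on day 4. Day 4 has 1 library per arm and borrows its spread from the other days.

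Against fibroblast-like cells of the same libraries, 26 of 100 differences of difference were called, and Hspb1 accounts for 7 of them. The Hspb1 change differed from that of fibroblast-like cells by -2.36 (adjusted p = 7.96e-09) on the log2 scale in lymphatic endothelial-like, -2.12 (adjusted p = 1.83e-05) in endothelial-like, -1.81 (adjusted p = 0.00215) in suprabasal or upper follicle keratinocyte-like and -1.03 (adjusted p = 0.00368) in pericyte or smooth muscle-like cells, and these 4 were called in all 10 fits without 1 library. The Hspb1 calls in dendritic-like, macrophage or monocyte-like and T cell-like cells were each kept in 3 of 10 such fits. In dendritic-like cells alone Hspb1 did not pass the count filter, and it entered this comparison through the fibroblast sums. So did Hspa1a, Hspa1b and Hspb1 in NK or innate lymphoid-like cells, of which none was called. The shares of all genes in these comparisons also include genes carried by the fibroblast sums. For NK or innate lymphoid-like cells 12412 genes were tested here, against 4464 in that class alone. Pericyte or smooth muscle-like cells differed from fibroblast-like cells by 1.24 (adjusted p = 0.0133) for Hspa1b and by -0.61 (adjusted p = 0.00589) for Hspa8, both kept in all 10 fits. Schwann-like cells differed by 1.59 (adjusted p = 0.00153) for Hspa1a, kept in 8 of 8 fits, and lymphatic endothelial-like cells by -0.74 (adjusted p = 0.00714) for Dnajb1, kept in 10. All genes were called at 5.62%, 11.1%, 9.46%, 9.19% and 2.02% in the lymphatic endothelial-like, endothelial-like, suprabasal, pericyte and Schwann-like comparisons. They were called at 16% for macrophage or monocyte-like, 15.6% for dendritic-like, 7.55% for basal keratinocyte-like, 10.3% for T cell-like and 4.22% for NK or innate lymphoid-like cells, where 3, 3, 1, 4 and 1 members were called. The comparisons share the fibroblast sums.

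A list of 30 immediate early genes known from tissue dissociation (Fos, Jun, Egr1, Ier2, Atf3 and others) was set beside the members. Its summed level in expanded libraries was 61.7% of that in control libraries in lymphatic endothelial-like cells (55182 to 71668 CPM in control, 26119 to 53878 in expanded libraries), 75.2% in endothelial-like, 71.9% in pericyte or smooth muscle-like and 77.2% in suprabasal or upper follicle keratinocyte-like cells. It was 88.8% in macrophage or monocyte-like, 90.8% in basal keratinocyte-like, 95.7% in dendritic-like and 104% in fibroblast-like cells, and 115% to 117% in the 3 classes with no member called. In the lymphatic endothelial-like class 22 of 29 tested list genes fell and none rose; Jun went from 6572 to 3414 CPM, -1.12 (adjusted p = 0.00688). Endothelial-like, suprabasal, pericyte and macrophage classes had 17, 16, 14 and 10 of 30 lower, and fibroblast-like cells 10 lower and 3 higher. Dendritic-like cells had 7 lower, T cell-like cells 1, and the remaining classes none. Of all genes 6.1% were lower in lymphatic endothelial-like cells. The share was 7.24% in endothelial-like, 9.19% in suprabasal, 10.5% in pericyte and 11.8% in macrophage classes. It was 17.8% in fibroblast-like, 9.84% in dendritic-like and 0.258% in T cell-like cells. Fibroblast-like cells held mean Hspa1a levels of 362 CPM in control and 172 in expanded libraries beside a dissociation sum at 104% of control, while pericyte or smooth muscle-like cells held 449.9 and 414 beside a sum at 71.9%. Hspa1a was called lower, with a sum below that of control, in both endothelial classes and in suprabasal, macrophage and dendritic classes. The sums there were at 61.7%, 75.2%, 77.2%, 88.8% and 95.7%. What dissociation contributes to these values was not tested.

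With the list's level as a covariate in the fit, no member was called in either endothelial class or in macrophage or monocyte-like, pericyte or smooth muscle-like and basal keratinocyte-like cells, and 2 were called in suprabasal or upper follicle keratinocyte-like cells. Calls over all genes dropped as well, to 5, 0, 8, 20, 9 and 630 in endothelial-like, lymphatic endothelial-like, macrophage, pericyte, basal and suprabasal cells. In both endothelial classes the list's sum did not overlap between the arms. It was 31368 to 36056 CPM in control and 20982 to 28538 in expanded libraries of endothelial-like cells. There the fit can hardly separate the list's level from the arm, and lost calls do not show what dissociation contributes. The fold changes moved unevenly. Hspa1a went from -1.76 to -0.50 (adjusted p = 0.751) in endothelial-like cells, but from -2.21 to -1.92 (adjusted p = 0.0693) in macrophage or monocyte-like cells, and Hspa1b in lymphatic endothelial-like cells from -1.56 to -1.57 (adjusted p = 0.141). Hspa8 went from -0.53 to -0.61 (adjusted p = 0.247) in macrophage or monocyte-like and from -0.73 to -0.67 (adjusted p = 0.184) in pericyte or smooth muscle-like cells, and Hsph1 from -1.08 to -1.01 (adjusted p = 0.0679) in basal keratinocyte-like cells. Fibroblast-like cells had 4146 genes and 4 members called. Hspa1a and Hspa1b were among these, Hspd1 was no longer called at 0.29 (adjusted p = 0.0686), and Dnajb1 at -0.48 (adjusted p = 0.026) and Hspb1 at 0.49 (adjusted p = 0.019) were called, as they were not without the covariate. Dendritic-like cells had 1393 genes and the same 6 members called as without the covariate. All libraries were digested, and the part of dissociation in these differences was not tested.

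**Figure D5:**
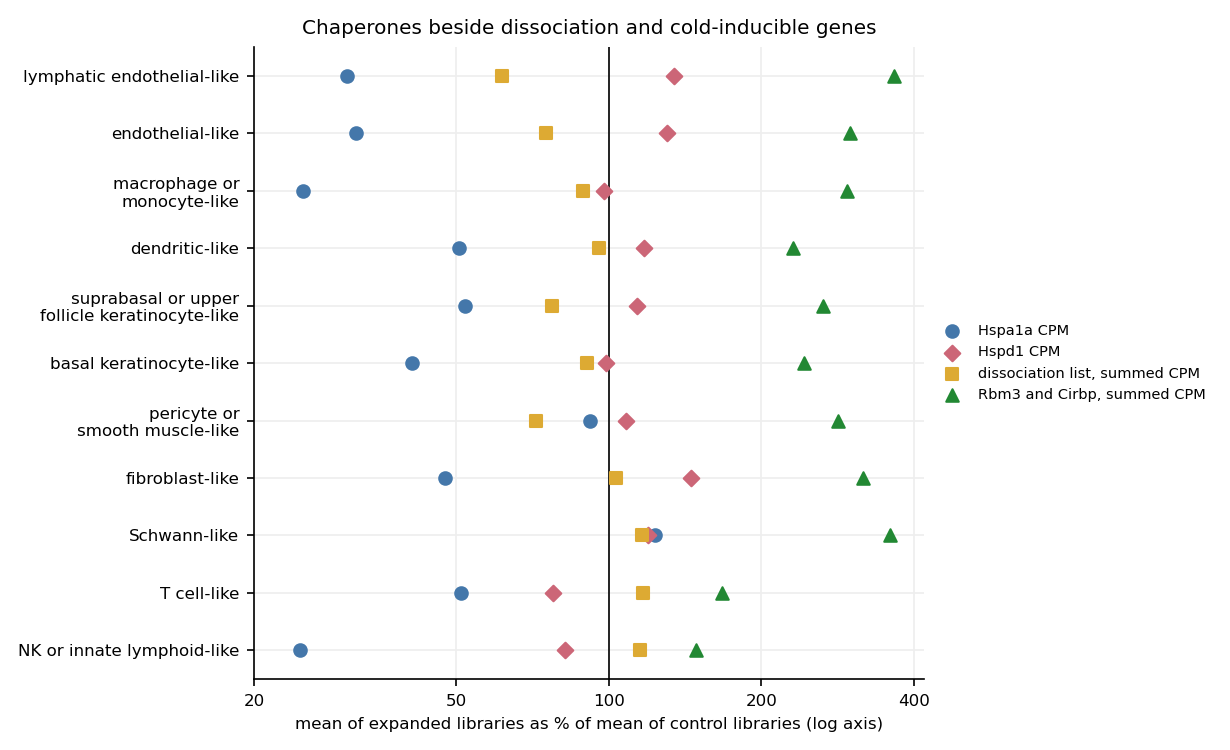
For each class, points give the mean of the expanded libraries as a percentage of the mean of the control libraries (log axis) for Hspa1a, Hspd1, the summed dissociation list and the summed cold-inducible genes Rbm3 and Cirbp. The dissociation list lies between 61.7% and 117%, Hspa1a lies above it in pericyte and Schwann-like cells and below it in the other classes, and the cold-inducible sum lies above 100% in all.

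Rbm3 and Cirbp, RNA-binding proteins known to rise when cells are cooled, were set beside the members as well. Their summed level was higher in expanded libraries in every pair and without overlap in all 11 classes, at 149% of control in NK or innate lymphoid-like, 167% in T cell-like and 366% in lymphatic endothelial-like cells. Both genes were called higher in 9 classes, 1 of them in T cell-like and neither in NK or innate lymphoid-like cells. In Schwann-like cells the sum stood at 359% while Hspa1a was not called. The part of what moves these genes in the chaperone values was not tested.

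Over single cells of 1 class in 1 library, thinned to 2000 UMIs, the members were set beside the dissociation list. Over 112 such groups of at least 50 cells the median Spearman correlation with the list was 0.25 for Hspa8, 0.24 for Hspa1a, 0.20 for Hsp90aa1, 0.19 for Dnajb1, 0.19 for Dnaja1, 0.17 for Hspa1b and 0.12 for Hspb1. It was 0.04 for Hsph1, -0.06 for Hspe1 and -0.06 for Hspd1. Hspa1a was above 0 in 108 of 112 groups and Hspd1 in 25. These cells share a library and a depth, the counts are sparse, and the values are descriptions.

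Chaperones outside the 10 members were counted list by list. Of 21 other cytosolic chaperones, among them the subunits of the CCT folding ring, 11 rose and none fell in fibroblast-like cells (median log2 fold change 0.24, all genes 0.02), and 5 rose and none fell in endothelial-like cells (0.17, all genes 0.01), where the members' median was -0.74. Over all genes 2227 of 12925 rose in fibroblast-like and 573 of 9272 in endothelial-like cells. In dendritic-like cells none of these chaperones rose and 2 fell, and in macrophage or monocyte-like cells 1 rose and 2 fell. Hsp90ab1, the constitutive HSP90, was -0.07 (adjusted p = 0.714) in fibroblast-like and -0.78 (adjusted p = 0.00838) in macrophage or monocyte-like cells. Of 9 other mitochondrial chaperones and proteases 5 rose in fibroblast-like cells, including Hspa9, the mitochondrial HSP70, at 0.40 (adjusted p = 0.0145) and the protease subunit Clpp at 0.77 (adjusted p = 0.000787). Among HSF1 targets and regulators 6 fell and 4 rose of 21 in fibroblast-like cells, with the collagen chaperone Serpinh1 at -1.26 (adjusted p = 0.000262). Endoplasmic reticulum chaperones were called lower at 3 of 19 in fibroblast-like cells, where 17.8% of all genes fell, and at 3 of 19 in lymphatic endothelial-like cells, where 6.1% did. They were lower at 5 of 18 in dendritic-like cells, beside 9.84% of all genes, and at 6 of 19 in the sum of all cells, beside 14%. Endothelial-like cells had 2 of 19 higher and none lower, and pericyte or smooth muscle-like cells 3 of 18 higher and 1 lower. Over all genes 573 of 9272 and 578 of 6842 were higher there. Suprabasal or upper follicle keratinocyte-like cells had 1 of 19 higher and 2 lower, beside 9.19% of all genes lower. Macrophage or monocyte-like cells had 2 of 18 lower, beside 11.8%, and T cell-like cells 1 of 18, beside 0.258%. Hspa5, or BiP, was -0.80 (adjusted p = 0.00964) in the lymphatic class.

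Across the 107 sums of class and library, centred within class, the genes outside the members most like Hspa1a, among 4632 well-measured ones, were Arid5b (Pearson r 0.58), Hspa5 (0.56), Syne2 (0.56), Malat1 (0.56) and Jund (0.54). Those outside the members most like Hspd1 were Cct6a (0.77), Cct2 (0.75), Cct7 (0.75), Cct4 (0.75) and Cct3 (0.74), all subunits of the CCT folding ring. Among the members Hspd1 was at 0.78 with Hspe1 and at -0.05 with Hspa1a, and Hspa1a was at 0.92 with Hspa1b, 0.58 with Hsph1, 0.58 with Hsp90aa1 and 0.55 with Dnaja1. Sums of 1 library share depth and handling, and these values are descriptions over points that are not independent.

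The 4 classes with too few libraries give values without a test. Dermal papilla-like cells, the signalling core of the follicle, held Hspa1a at 445 ± 231 CPM in 3 control and 494 ± 135 in 4 expanded libraries, with ranges that overlap. Mast cell-like cells held Hspa1a at 40.8 to 135 CPM in 5 control and 12.2 to 40.6 in 3 expanded libraries, without overlap, and Dnajb1 at 408 to 1552 and 325 to 435. Melanocyte-like cells held Hspa1a at 186 ± 120.2 (n = 4) and 152 ± 66.7 (n = 3). Neutrophil-like cells held it at 24.5 to 83.7 in 2 control and 10.6 to 13.5 in 4 expanded libraries, and had the least Hspe1 of any class, 6.13 CPM on average in control skin.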

How the data were processed

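Messenger RNA was counted in 10 single-cell libraries, 5 per arm. The deposited values are raw UMI counts per gene and barcode from Cell Ranger 6.1.2 on mm10, per the submitters' processing notes and the file headers; the annotation release is not given in the sources used here. No column lacked a sample. Barcodes under 200 genes or 500 UMIs, or above 10% mitochondrial counts, were dropped. A further 2440 barcodes were removed as likely doublets or as hashtag multiplets. Likely doublets were those with the highest Scrublet scores (scanpy 1.11.5), up to a set rate of 0.8% per 1000 cells in the library, not Scrublet's own calls. Libraries shared at most 0.338% of barcodes. Cells were clustered with the Leiden method of igraph 0.11.9 without the members and the stress and chaperone lists, and clusters were named from marker genes. Counts were summed per class and library where at least 20 cells were present and tested with edgeR 4.0.16 (TMM, quasi-likelihood, day as covariate), with p-values adjusted over all genes of a class. The script was tested on simulated counts. The library, a pool of mice, was the replicate. Control and expanded libraries of a round share that round per the labels, which pairs them: deviations from the group means correlated from -0.0144 to 0.496 in 22 checks, 18 of them above 0.1. Alternatives were other scaling, filters, DESeq2 1.42.0, the pair block, the dissociation list as covariate, thinning to 2000 UMIs and leaving out each library. All 10 members were named in every class; from other lists at most 4 genes were, those with the highest level in the class. The members and lists were chosen with earlier results of these data known. Gene positions come from the GRCm38 annotation and sequences from RefSeq on GRCm38.p6. Antibody counts served to assign mice only, by a leading hashtag with at least 10 counts and 3 times the next.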

Additional observations from a re-analysis of the deposited data

Results flagged for a closer look

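In 18 of 240 groups of a member, class and arm, 1 library stood apart from the others by Dixon's test at the 95% level; chance alone sets apart about 1 in 20 groups. In all cells these values were 1578 CPM for Hspa8 in expanded day 1 round 1. In NK or innate lymphoid-like cells these values were 21.0 CPM for Hspb1 in expanded day 1 round 2 and 145 CPM for Hspd1 in expanded day 1 round 1. In Schwann-like cells these values were 74.6 CPM for Hspa1b in control day 4 round 1. In T cell-like cells these values were 41.2 CPM for Hspa1a in expanded day 2 round 2 and 209 CPM for Hspd1 in expanded day 2 round 1. In basal keratinocyte-like cells these values were 1467 CPM for Hspa1b in control day 2 round 1, 1652 CPM for Dnaja1 in control day 2 round 1 and 465 CPM for Dnaja1 in expanded day 1 round 1. In dendritic-like cells these values were 17.4 CPM for Hspb1 in control day 1 round 1. In endothelial-like cells these values were 1353 CPM for Hspb1 in control day 2 round 1 and 1579.6 CPM for Dnaja1 in control day 2 round 1. In fibroblast-like cells these values were 161 CPM for Dnajb1 in expanded day 1 round 2. In lymphatic endothelial-like cells these values were 1431 CPM for Dnaja1 in control day 2 round 1 and 289 CPM for Hspe1 in expanded day 2 round 1. In macrophage or monocyte-like cells these values were 673 CPM for Hspa1a in control day 1 round 1. In pericyte or smooth muscle-like cells these values were 659.7 CPM for Hspa1a in control day 2 round 1 and 500.5 CPM for Dnajb1 in expanded day 1 round 2.

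The expansion effect of a class differed from that of fibroblast-like cells in 26 of 100 tests by the class-by-arm term in edgeR (adjusted p under 0.05). The values are log2 differences of the 2 effects, negative where the class had the more negative effect. It was, in NK or innate lymphoid-like cells, -0.76 for Hspd1. For Schwann-like cells the difference was 1.59 for Hspa1a and 1.30 for Hspa1b. It was, in T cell-like cells, 1.11 for Hspa1b, -1.60 for Hspb1, -0.78 for Hspe1 and -0.74 for Hspd1. For basal keratinocyte-like cells the difference was -0.44 for Hsp90aa1. It was, in dendritic-like cells, -1.86 for Hspb1, -0.65 for Hsp90aa1 and -0.58 for Hspe1. Hspb1 did not pass the count filter in dendritic-like cells alone and was tested here through the fibroblast sums. The same holds for Hspa1a, Hspa1b and Hspb1 in NK or innate lymphoid-like cells, of which none was called. The Hspb1 calls in dendritic-like, T cell-like and macrophage or monocyte-like cells were each kept in 3 of 10 fits without 1 library. For endothelial-like cells the difference was -2.12 for Hspb1 and -0.53 for Hsp90aa1. It was, in lymphatic endothelial-like cells, -0.74 for Dnajb1, -2.36 for Hspb1 and -0.62 for Hsp90aa1. For macrophage or monocyte-like cells the difference was -0.93 for Hspa1a, -1.72 for Hspb1 and -0.62 for Hsp90aa1. It was, in pericyte or smooth muscle-like cells, 1.01 for Hspa1a, 1.24 for Hspa1b, -1.03 for Hspb1, -0.61 for Hspa8 and -0.64 for Dnaja1. For suprabasal or upper follicle keratinocyte-like cells the difference was 1.04 for Hspa1b and -1.81 for Hspb1.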

How the results depend on the processing

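Leaving out 1 library at a time, members called ran from 0 to 0 in NK or innate lymphoid-like, 0 to 0 in Schwann-like, 0 to 1 in T cell-like, 3 to 6 in all cells, 1 to 2 in basal keratinocyte-like, 2 to 7 in dendritic-like, 4 to 8 in endothelial-like, 2 to 5 in fibroblast-like, 4 to 8 in lymphatic endothelial-like, 3 to 6 in macrophage or monocyte-like, 2 to 4 in pericyte or smooth muscle-like and 4 to 6 in suprabasal or upper follicle keratinocyte-like. In the same order, calls over all genes ran from 1 to 18, 0 to 43, 9 to 65, 2143 to 4993, 28 to 172 and 707 to 2063. From endothelial-like cells on they ran from 676 to 1256, 3405 to 4516, 208 to 743, 1175 to 2583, 539 to 1282 and 907 to 2049. The class-by-arm count ran from 0 to 0 in NK or innate lymphoid-like, 1 to 2 in Schwann-like, 0 to 5 in T cell-like, 0 to 2 in basal keratinocyte-like, 0 to 4 in dendritic-like, 1 to 2 in endothelial-like, 2 to 4 in lymphatic endothelial-like, 0 to 4 in macrophage or monocyte-like, 3 to 5 in pericyte or smooth muscle-like and 1 to 3 in suprabasal or upper follicle keratinocyte-like, and the arm-by-day count stayed at 0. With no filter on low counts 2 members were called in NK or innate lymphoid-like, 3 in T cell-like, 6 in basal keratinocyte-like, 6 in fibroblast-like and 4 in pericyte or smooth muscle-like cells. DESeq2 called 4 in basal keratinocyte-like and 5 in fibroblast-like cells. The dissociation covariate left 0 in basal keratinocyte-like, endothelial-like, lymphatic endothelial-like, macrophage or monocyte-like and pericyte or smooth muscle-like and 2 in suprabasal or upper follicle keratinocyte-like cells, and it turned Hspa1b in endothelial-like cells from -1.21 to 0.13 (SE 0.30, adjusted p = 0.958). In both endothelial classes the list's level did not overlap between the arms, so that fit can hardly separate the list from the arm. The cause of the turn was not tested. A mitochondrial limit of 5% gave 1 in basal keratinocyte-like and 4 in pericyte or smooth muscle-like cells. Thinning gave 0 in basal keratinocyte-like and 5 in lymphatic endothelial-like cells, and moved the expanded Hspe1 level of suprabasal or upper follicle keratinocyte-like cells from 478.7 to 431 CPM. Total-count scaling, chosen after seeing the data, gave 3 in dendritic-like and 5 in fibroblast-like cells. The replicate block gave 5 in fibroblast-like and 4 in pericyte or smooth muscle-like cells and moved no other count by over 1.5 times. For the filter, DESeq2, mitochondrial, thinning and block fits, the share of all genes called and the directions are not given here. Those counts show only how far the number of calls moved with the setting. Single clusters, also chosen afterwards, gave 5 in cluster 2 and 6 in cluster 4 of fibroblast-like, 1 in cluster 6 and 0 in cluster 9 of macrophage or monocyte-like, and 3 in cluster 7 of dendritic-like cells. Over all genes 29.9%, 19.6%, 8.26%, 0.0605% and 15.1% were called in these clusters. In clusters 2 and 4 the calls went both ways. Hspb1 and Hspe1 were higher in both and Hspd1 was higher in cluster 2, and the other calls there were lower. Of the called fold changes, 743 recomputed values kept direction and call, 150 kept direction only and 1 turned sign.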
